A study of Mus musculus with 14 samples.

Results

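Among 55487 genes counted in sorted mouse skin mast cells, 15 protein-coding genes were at 10 CPM (counts per 1e6 counts of a library) or more in every library of mast cells labelled as bone marrow mast cells and under 3 CPM in every library of untreated resident mast cells. Of the 21 protein-coding genes that met these levels, 6 (Btg2, Ccl9, Cd83, Kcnn4, Scin and Serpina3g) were set aside by name. The 15 were Ifitm3, Spns3, Itgb2, Tnfrsf9, Adgrg1, Sema4d, Bmp7, Plac8, Cd52, Rhof, Hsd11b1, Glipr1, Slc14a1, Pla2g16 and Gpr176. They were chosen by their levels in the bone marrow and untreated libraries, so the difference between these groups is given as a description with no p-value. The 5 libraries of resident cells from treated skin played no part in the choice, but each comparison of them below has a group on its other side that the choice used, and the p-values and counts are to be read with that in mind.

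The cells came from the ears of mice that were either left untreated or treated with MC903 (calcipotriol), a vitamin D analogue used to produce dermatitis resembling atopic dermatitis. There were 5 libraries of untreated resident mast cells (libraries 1 to 5), 5 of resident cells after MC903 (6 to 10) and 4 of a further mast cell population after MC903 (11, 13, 14 and 15). The last group is labelled as bone marrow mast cells, while the protocol names integrin β7-positive mast cells of the ears and no bone marrow sample. The 2 names are read here as the same cells, and bone marrow cells below means this group. Each library was a pool of up to 100 cells, and strain, age, sex and animal are not given in the labels. Nothing in the labels says which pools came from separate mice, so the p-values measure only the spread between these pools. In bulk pools, fewer cells with a transcript and less transcript per cell cannot be told apart.

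Skin holds long-lived resident mast cells rich in granule proteases, and inflamed tissue also receives mast cell progenitors that leave the bone marrow, travel in blood and enter tissue with the help of integrin β7. Cells on that route carry leukocyte surface molecules for adhesion to vessel walls and for exchange of signals with other immune cells. Several of the 15 genes belong to that class by textbook knowledge: Itgb2 encodes the β2 integrin chain, which pairs with αL or αM to bind ICAM molecules, and Cd52, Tnfrsf9 and Sema4d encode leukocyte surface proteins.

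The label that these genes were on in bone marrow cells alone held for some of them and not for others. In MC903 resident cells, 4 genes (Itgb2, Plac8, Glipr1 and Slc14a1) stayed under 3 CPM in all 5 libraries. Another 6 (Ifitm3, Spns3, Tnfrsf9, Adgrg1, Hsd11b1 and Gpr176) reached 10 CPM in at least 1 library, and the remaining 5 lay between. No gene reached 10 CPM in every MC903 resident library. Over the 75 gene-by-library values, 39 were under 3 CPM and 15 were at 10 CPM or more. The median of the 15 group means was 34.0 CPM in bone marrow, 4.92 CPM in MC903 resident and 0.482 CPM in untreated cells.

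**Figure D1:**
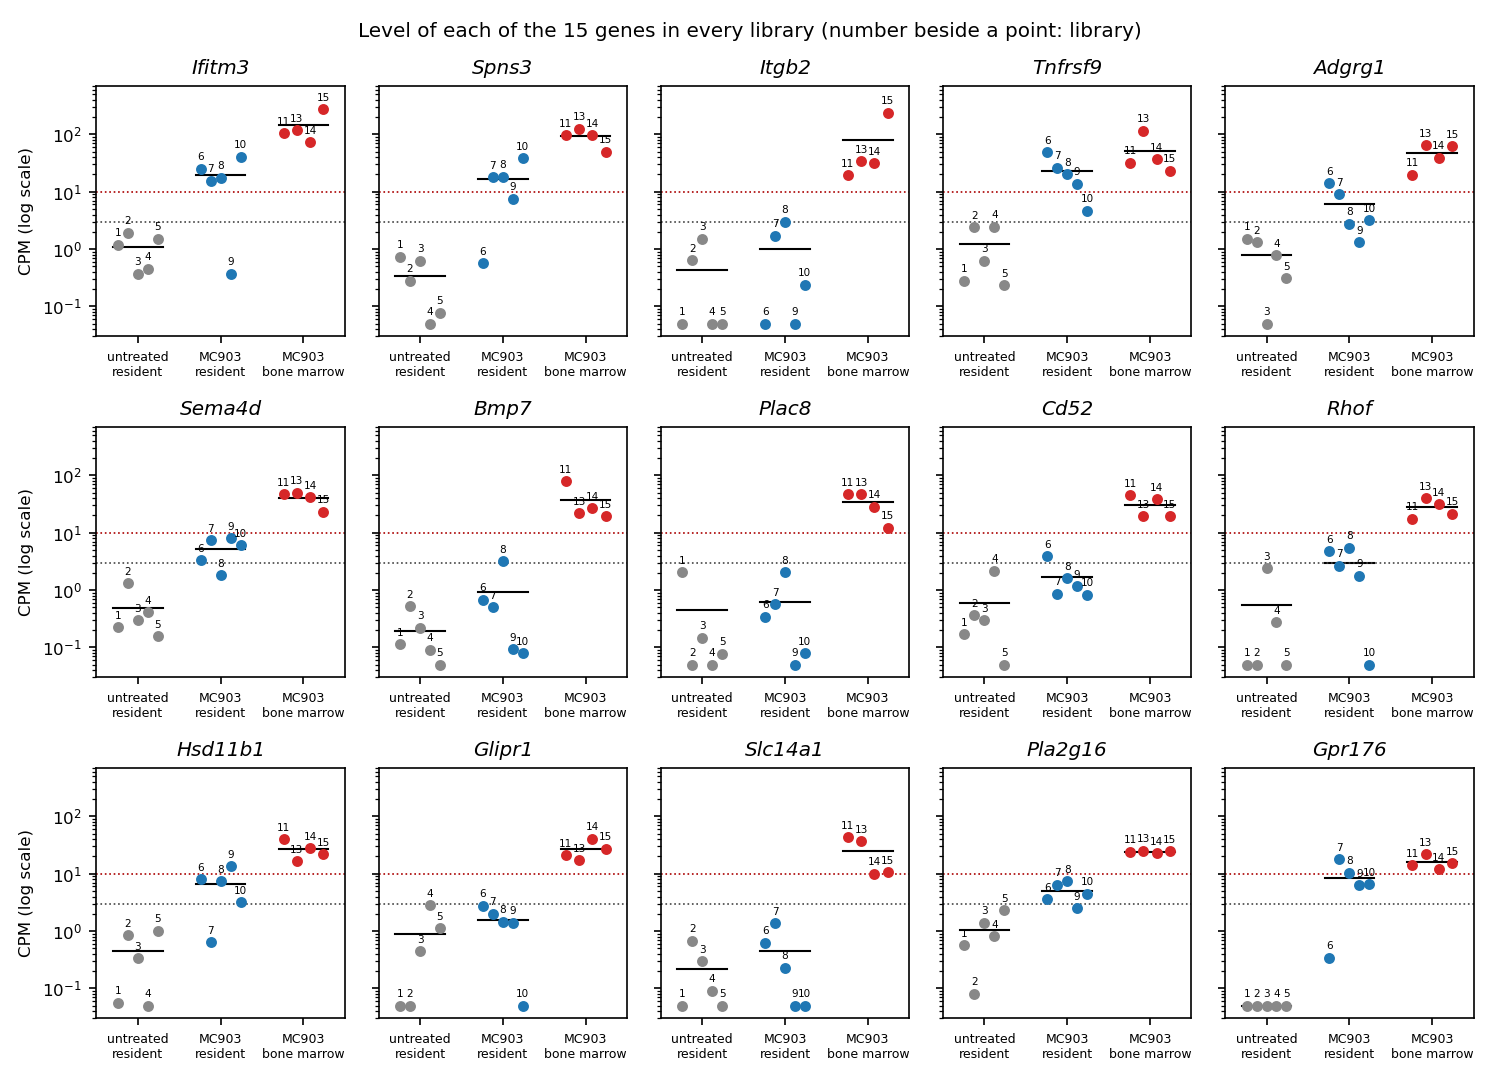
Level of the 15 genes in each of the 14 libraries, as CPM on a log axis, with 1 panel per gene, points for libraries (numbered), black bars for group means and dotted lines at 3 and 10 CPM; values under 0.05 CPM are drawn at 0.05. The MC903 resident points of Itgb2, Plac8, Glipr1 and Slc14a1 lie below the lower line, while those of Tnfrsf9 overlap the bone marrow points.

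RefSeq promoter windows on GRCm38.p6, each from 250 bases before to 50 bases after a start site, were matched for 8 of the 15 genes (13 windows, several genes having more than 1 start). The sequence TGANTCA, the AP-1 motif bound by Fos and Jun proteins, was in 4 of the 13 windows, 1 each of Ifitm3, Tnfrsf9, Adgrg1 and Sema4d, and in 7.81% of the 32851 windows of all genes. TGTGGT, the Runx motif, was in 4 of 13 windows and 16.8% of all. The GATA motif as AGATAA was in 1 of 13 windows and 11.2% of all, and as TGATAA in 2 of 13 and 9.05%. AGGAAG, an Ets motif, was in 3 of 13 and 35.4%. No window of the set held CGGAAG, a second Ets motif present in 16.9% of all windows, or GAGGAAGT, the Spi1 motif in 3.20%. None held TGACGTCA, the CRE motif in 1.79%, CACGTG, the E-box in 7.15%, or TATAAA, the TATA box in 13.6%. An NF-kB motif was searched in 1 form only, whose letters are not shown. That form was in no window of the set and 0.411% of all. Other forms were not searched, so this count does not show that the windows lack an NF-kB site. The Tnfrsf9 window printed below holds, in lower case, a stretch that differs from the searched form by 1 letter. Both strands were searched, and GAGGAAGT contains AGGAAG. A match is only these letters in this window, and factor binding was not measured. The TGANTCA matches began at positions -105 of Ifitm3, -15 of Tnfrsf9, -141 and -59 of Adgrg1 and -239 of Sema4d, counted from the start site. The 4 windows with TGANTCA and the Plac8 window with 3 Runx matches are shown 5′ to 3′ on the strand of the gene, with every match to a searched motif in capitals.
Ifitm3, chr7:141010695-141010994, minus strand: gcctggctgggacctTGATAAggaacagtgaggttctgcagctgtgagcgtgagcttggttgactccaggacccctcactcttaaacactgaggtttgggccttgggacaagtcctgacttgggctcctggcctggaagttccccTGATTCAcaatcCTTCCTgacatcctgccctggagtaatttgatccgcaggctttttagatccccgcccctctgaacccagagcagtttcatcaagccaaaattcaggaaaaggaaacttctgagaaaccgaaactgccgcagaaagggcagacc
Tnfrsf9, chr4:150927749-150928048, plus strand: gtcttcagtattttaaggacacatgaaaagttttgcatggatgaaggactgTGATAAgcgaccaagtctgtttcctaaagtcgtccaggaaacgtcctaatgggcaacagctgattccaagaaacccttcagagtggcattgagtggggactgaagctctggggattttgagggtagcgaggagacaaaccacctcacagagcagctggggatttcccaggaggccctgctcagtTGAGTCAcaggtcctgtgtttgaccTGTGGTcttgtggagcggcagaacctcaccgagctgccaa
Adgrg1, chr8:94984149-94984448, plus strand: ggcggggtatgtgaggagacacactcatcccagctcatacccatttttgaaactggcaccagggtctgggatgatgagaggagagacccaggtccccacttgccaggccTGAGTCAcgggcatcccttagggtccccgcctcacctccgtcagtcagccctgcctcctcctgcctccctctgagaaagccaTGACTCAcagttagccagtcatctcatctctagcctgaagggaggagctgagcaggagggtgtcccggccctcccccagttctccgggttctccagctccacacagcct
Sema4d, chr13:51748761-51749060, minus strand: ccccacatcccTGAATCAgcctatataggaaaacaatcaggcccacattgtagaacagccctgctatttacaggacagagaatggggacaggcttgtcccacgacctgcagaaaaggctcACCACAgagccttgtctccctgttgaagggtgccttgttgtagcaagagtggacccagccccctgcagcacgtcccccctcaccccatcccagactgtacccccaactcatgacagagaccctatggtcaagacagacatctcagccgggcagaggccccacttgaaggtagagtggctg
Plac8, chr5:100572156-100572455, minus strand: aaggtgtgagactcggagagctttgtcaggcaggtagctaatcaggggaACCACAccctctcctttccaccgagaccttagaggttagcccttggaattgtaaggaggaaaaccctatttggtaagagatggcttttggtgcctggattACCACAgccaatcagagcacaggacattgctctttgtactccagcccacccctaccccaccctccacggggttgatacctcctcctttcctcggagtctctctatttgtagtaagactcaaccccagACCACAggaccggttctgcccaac

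Before the values, 1 library needs a note. Library 15 was high for markers of another cell type, and the source of that RNA was not tested. The 9 listed monocyte and macrophage markers summed to 12283 CPM there and to 168, 72.7 and 329 CPM in libraries 11, 13 and 14. Their sums were 60.8 to 167 CPM in MC903 resident and 55.3 to 119.9 CPM in untreated libraries. Lyz2 was at 4774 CPM, C1qb at 2232 CPM, C1qc at 1733 CPM and Csf1r at 1090 CPM in library 15. Adgre1, Csf1r, C1qc and Mrc1 had no counts in libraries 11 and 13, and library 14 had 243.7 CPM of Lyz2, 9.79 CPM of Csf1r and no C1qc. The 14 listed core mast cell genes summed to 107526 CPM in library 15 and 134719.9 to 149740 CPM in libraries 11, 13 and 14, so mast cell RNA was abundant in all 4. Mcpt8, a basophil protease also found in some mast cells, was at 955, 186, 79.2 and 46.0 CPM in libraries 11, 13, 14 and 15, with Prss34, the second basophil protease, at 14.3 CPM or less in all 4. Total counts ran from 13068078 to 31781926 per library and the number of genes detected from 16025 to 35246, highest in libraries 8, 7 and 15.

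**Figure D2:**
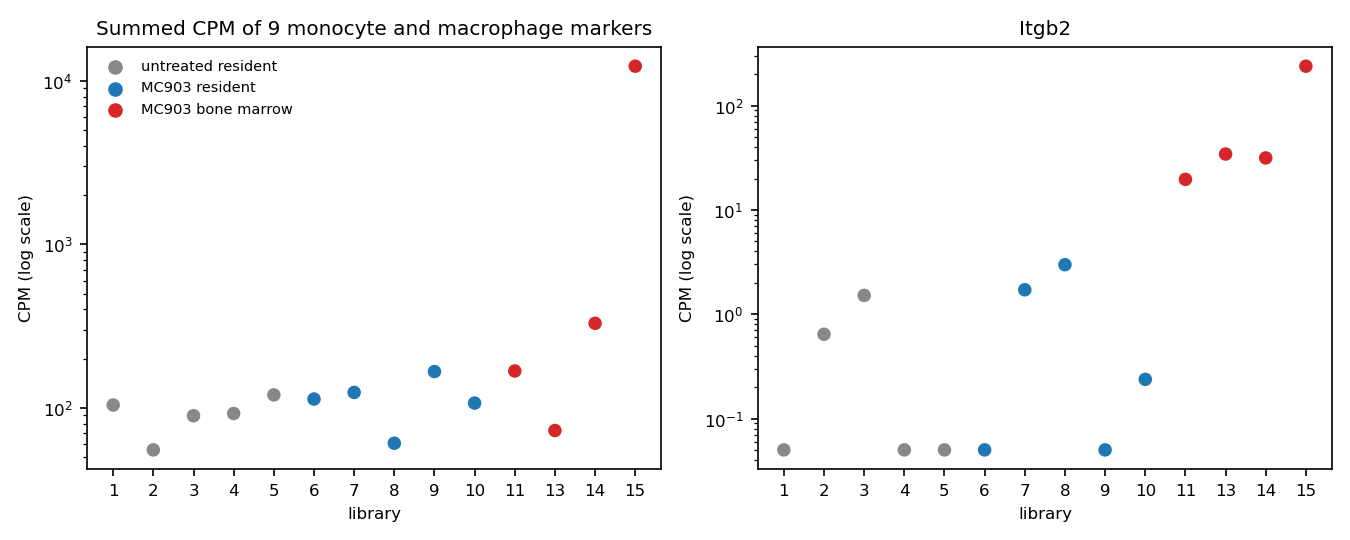
Summed CPM of 9 monocyte and macrophage markers (left) and Itgb2 CPM (right) per library, both on log axes, coloured by group, with values under 0.05 CPM drawn at 0.05. Library 15 stands highest in both panels, at 12283 and 239 CPM, and Itgb2 was at 19.6 to 34.4 CPM in libraries 11, 13 and 14.

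Itgb2 (chr10:77530252-77565708, plus strand) was the adhesion gene of the set. It was at 19.6, 34.4, 31.5 and 239 CPM in bone marrow libraries 11, 13, 14 and 15, and at 0, 1.72, 2.98, 0 and 0.237 CPM in MC903 resident libraries 6 to 10. Untreated libraries had 0 to 1.51 CPM. Every bone marrow library lay above every MC903 resident library. Library 15, with its macrophage markers, was 8.38 times the mean of the other 3. Macrophages express Itgb2, and their part in the level of library 15 was not tested. Without library 15 the bone marrow mean was 28.5 ± 7.81 CPM (SD, n = 3), which was 28.9-fold the MC903 resident mean of 0.987 ± 1.33 CPM (SD, n = 5). The difference of bone marrow from MC903 resident cells was 6.67 ± 1.72 (SE) on the log2 scale and did not pass the threshold (quasi-likelihood test of edgeR, adjusted p = 0.0744). It was called with the DESeq2 Wald test (adjusted p = 0.0178) and with limma on quality-weighted counts (0.00758), and the adjusted p reached 0.169 in the other settings tried. Of the α chains that pair with β2, Itgal was at 5.06, 14.8, 6.43 and 24.5 CPM in the 4 bone marrow libraries and 0.158 to 6.79 CPM in MC903 resident libraries. Itgam was at 0.49, 0, 0 and 21.6 CPM in the same 4, and Itgax was at 2.60 CPM in library 15 and 0 in the other 3.

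Cd52 (chr4:134082448-134095082, minus strand) encodes a short glycoprotein anchored to the surface of leukocytes. It was at 44.7, 19.5, 39.0 and 19.4 CPM in bone marrow libraries and 3.86, 0.858, 1.61, 1.17 and 0.83 CPM in MC903 resident libraries, with 0 to 2.18 CPM in untreated cells. Bone marrow and MC903 resident libraries did not overlap, and their log2 difference was 4.38 ± 0.956 (SE, edgeR adjusted p = 0.0164). The call was lost without library 7, 8, 9 or 11 (adjusted p from 0.0534 to 0.0624) and without libraries 7, 8 and 15 together (0.122). Cd52 shares 172 bases, 14.5% of its exon length, with the opposite-strand gene Crybg2, whose group means were 1.45 to 4.34 CPM.

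Tnfrsf9 (chr4:150914562-150946102, plus strand) encodes 4-1BB, a costimulatory receptor of the TNF receptor family. Its bone marrow values were 32.2, 116, 37.3 and 23.1 CPM and its MC903 resident values 49.2, 26.2, 20.1, 13.9 and 4.67 CPM, while untreated libraries had 0.233 to 2.45 CPM. The 2 treated groups overlapped, and every MC903 resident library lay above every untreated one. MC903 resident cells exceeded untreated cells by 4.04 ± 0.726 (SE) on the log2 scale (edgeR adjusted p = 0.00282), a call kept in all 10 fits that left out 1 library. Bone marrow and MC903 resident cells differed by 1.45 ± 0.674 (SE), which did not pass the threshold (adjusted p = 0.268). Activated T cells express Tnfrsf9. The 8 listed T cell markers summed to 76.1 CPM in library 13 and 48.1 CPM in library 6, the highest sums of their groups. Of these sums Cd4 made up 72.6 and 42.8 CPM. The next highest sums were 40.6 CPM in library 15 and 31.5 CPM in library 10, the libraries with the lowest Tnfrsf9 of their groups. Cd3e was at 0 and 4.09 CPM in libraries 13 and 6 and Trac at 3.52 and 0.284 CPM, and the part of T cell RNA was not tested. The ligand gene Tnfsf9 was at 9.47, 5.57, 45.5 and 146 CPM in the bone marrow libraries and at most 2.57 CPM in MC903 resident libraries, and its log2 difference of 5.21 ± 1.35 (SE) did not pass the threshold (edgeR adjusted p = 0.0610). The adaptor gene Traf1 rose from 16.1 ± 5.50 CPM in untreated to 54.98 ± 14.6 CPM in MC903 resident cells (SD, n = 5 each), a log2 change of 1.60 ± 0.296 (SE, edgeR adjusted p = 0.0036).

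The set held 2 genes for ligands. Sema4d (chr13:51685529-51793747, minus strand) encodes a membrane-bound semaphorin that signals to plexin B receptors and to CD72. It was at 46.7, 49.9, 42.1 and 23.1 CPM in bone marrow, at 3.29, 7.36, 1.84, 7.94 and 6.09 CPM in MC903 resident and at 0.155 to 1.32 CPM in untreated libraries. Sema4d lay at a middle level in MC903 resident libraries, with no overlap with the other 2 groups, which the choice of genes kept apart. It was the 1 gene of the 15 called in both comparisons: MC903 resident exceeded untreated cells by 3.32 ± 0.637 (SE, edgeR adjusted p = 0.00462), and bone marrow exceeded MC903 resident cells by 3.08 ± 0.634 (SE, adjusted p = 0.0101). Each call was kept in every fit that left out 1 library, and the second was lost when libraries 7, 8 and 15 were left out together (edgeR adjusted p = 0.0558). The first difference was 4.14 without library 2. Of its receptor genes, Plxnb2 was at 0, 0, 1.46 and 74.2 CPM in the 4 bone marrow libraries, and Cd72 was at 2.98, 0, 4.13 and 33.7 CPM in bone marrow and 4.74 to 22.7 CPM in MC903 resident libraries.

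Bmp7 (chr2:172868012-172940321, minus strand) encodes a secreted bone morphogenetic protein. It was at 78.7, 22.1, 27.0 and 19.3 CPM in bone marrow, and at 0.681, 0.5, 3.21, 0.0935 and 0.0791 CPM in MC903 resident libraries. Untreated libraries had 0 to 0.522 CPM. All bone marrow libraries were above all MC903 resident ones, by a mean of 40.3-fold (log2 difference 5.62 ± 1.04, SE, edgeR adjusted p = 0.00415). The call was kept in all 9 fits that left out 1 library and in the 6 other settings tried. The log2 difference was 6.95 without library 8 and 4.90 without library 11. The highest value was in library 11, which also had the most Mcpt8; the other 3 libraries were between 19.3 and 27.0 CPM. Of the other basophil-list genes in library 11, Cd200r3 was within the untreated range (514 against 434.8 to 619 CPM) and Itga2 below it (35.2 against 51.97 to 135 CPM). Il3ra (61.4 against 19.96 to 55.1 CPM) and Prss34 (4.65 against 0 to 1.81 CPM) were above it. In bone marrow libraries 13, 14 and 15, Cd200r3 was at 482, 552 and 221 CPM and Itga2 at 32.6, 26.2 and 22.6 CPM. There Il3ra was at 29.9, 73.9 and 45.8 CPM and Prss34 at 14.3, 0.364 and 0 CPM, so these levels did not set library 11 apart. The part of basophil RNA was not tested. Of 13 receptor, transducer and target genes of the BMP pathway that were tested, none was called in either comparison; the count at an unadjusted p under 0.05 was 2 for bone marrow against MC903 resident (17.7% of all genes were) and 0 for MC903 resident against untreated cells (12.6%). Bmpr1a was at 0 to 3.05 CPM in bone marrow libraries and 11.6 to 19.97 CPM in MC903 resident libraries, and the BMP target Id1 was at most 3.21 CPM in every library.

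The set held 2 genes for G protein-coupled receptors. Adgrg1 (GPR56, chr8:94974751-95014217, plus strand), an adhesion receptor found on cytotoxic lymphocytes and blood progenitors, was at 19.7, 65.4, 39.1 and 62.0 CPM in bone marrow and at 14.2, 9.01, 2.75, 1.31 and 3.20 CPM in MC903 resident libraries. Untreated libraries had 0 to 1.52 CPM. Bone marrow libraries lay above all MC903 resident ones, the closest pair being library 11 at 19.7 CPM and library 6 at 14.2 CPM. The log2 difference was 3.16 ± 0.810 (SE, edgeR adjusted p = 0.0424), and the call was lost without any 1 of libraries 7, 8, 9, 10, 13 or 15 (adjusted p from 0.0576 to 0.124) with DESeq2 size factors (0.0624) and without libraries 7, 8 and 15 together (0.197). MC903 resident minus untreated cells was 2.76 ± 0.791 (SE) and did not pass (edgeR adjusted p = 0.0765), library 9 lying within the untreated range. It passed with no filter (0.000195), with the DESeq2 Wald test (0.00382) and among protein-coding genes alone (0.0499). Gpr176 (chr2:118277110-118373419, minus strand), an orphan receptor that couples to the inhibitory G protein Gz, had no count in any untreated library. It was at 14.2, 22.0, 12.1 and 15.4 CPM in bone marrow and at 0.341, 18.2, 10.5, 6.31 and 6.56 CPM in MC903 resident libraries, so the treated groups overlapped. Against a floor of 3 counts per untreated library (mean 0.131 CPM), the mean was at least 122-fold higher in bone marrow and at least 64.0-fold higher in MC903 resident cells. MC903 resident cells differed from untreated ones with an edgeR adjusted p of 0.000349, and bone marrow from MC903 resident cells by 1.17 ± 0.849 (SE, adjusted p = 0.505), which did not pass. Gnaz, which encodes the α subunit of Gz, was at 94.5 to 213 CPM in bone marrow and 50.9 to 155 CPM in the resident libraries.

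The 2 transporter genes differed in their levels in MC903 resident cells. Spns3 (chr11:72494919-72550506, minus strand), a member of the spinster transporter family, was at 96.7, 126, 96.5 and 49.8 CPM in bone marrow, at 0.568, 17.7, 18.4, 7.57 and 38.3 CPM in MC903 resident and at 0 to 0.734 CPM in untreated libraries. Library 6 was at the untreated level and the other 4 MC903 resident libraries were above it. The rise over untreated cells was 5.48 ± 0.991 (SE) on the log2 scale (edgeR adjusted p = 0.00621; 0.0732, not past the threshold, with limma; log2 change 4.76 without library 10), and the difference of bone marrow from MC903 resident cells, 2.63 ± 0.861 (SE), did not pass (adjusted p = 0.135) and passed with limma (0.00374). Slc14a1 (chr18:78100091-78142119, minus strand), which encodes the urea transporter UT-B, was at 43.5, 37.1, 10.04 and 10.6 CPM in bone marrow, falling into a high and a low pair. MC903 resident libraries had 0.624, 1.36, 0.23, 0.0467 and 0 CPM and untreated libraries 0 to 0.682 CPM. Bone marrow exceeded MC903 resident cells by 6.12 ± 1.30 (SE, edgeR adjusted p = 0.0134), with the call lost without library 8 (adjusted p = 0.0502) and a log2 difference of 6.95 without library 7.

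Of the 2 enzyme genes, Hsd11b1 (chr1:193221634-193264075, minus strand) encodes 11β-hydroxysteroid dehydrogenase type 1, which regenerates active glucocorticoid inside cells. It was at 40.5, 16.6, 28.2 and 22.2 CPM in bone marrow, at 8.06, 0.643, 7.42, 13.5 and 3.20 CPM in MC903 resident and at 0 to 1.01 CPM in untreated libraries. MC903 resident cells exceeded untreated cells by 3.68 ± 0.936 (SE, edgeR adjusted p = 0.0394). It did not hold when library 1, 2, 3, 4, 6, 8 or 9 was omitted (adjusted p from 0.0553 to 0.0994), or when libraries 7, 8 and 15 were omitted together (0.0612), and the log2 change was 4.28 without library 5. Bone marrow and MC903 resident cells did not differ past the threshold in edgeR (2.15 ± 0.895, SE, adjusted p = 0.213) and did with limma (0.0251). The glucocorticoid receptor gene Nr3c1 was at 89.5 to 154 CPM over all 14 libraries, and Hsd11b2, the opposing enzyme, was at most 0.429 CPM. Of 3 glucocorticoid-responsive genes, Tsc22d3 was lower in MC903 resident than in untreated cells (399 ± 167 against 787 ± 175 CPM, SD, n = 5 each, log2 change -1.11 ± 0.274, SE, edgeR adjusted p = 0.0332), and Fkbp5 and Per1 were not called.

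Pla2g16 (chr19:7557459-7588545, plus strand), a phospholipase of membrane lipids also named PLAAT3, was the most even of the set in bone marrow. It was at 24.3, 25.3, 22.7 and 24.6 CPM there, a ratio of highest to lowest of 1.12, compared with 12.2 for Itgb2. MC903 resident libraries had 3.63, 6.43, 7.50, 2.52 and 4.51 CPM and untreated libraries 0.0803 to 2.33 CPM. The MC903 resident libraries again overlapped neither of the other 2 groups, which the choice of genes kept apart. Neither difference passed in edgeR (bone marrow minus MC903 resident 2.51 ± 0.717, SE, adjusted p = 0.0743; MC903 resident minus untreated 1.98 ± 0.688, SE, adjusted p = 0.162). Both passed with the DESeq2 Wald test (adjusted p = 0.00594 and 0.0110), and the first also with no filter (0.0426) and with limma (0.00615). The adjusted p values reached 0.173 and 0.530 in the 6 settings other than leaving out 1 library. They reached 0.195 and 0.296 in the edgeR fits that left out 1 library.

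Ifitm3 (chr7:141009586-141010770, minus strand), an interferon-inducible membrane protein that restricts virus entry, had the highest level per kilobase of exon in bone marrow, at 212 CPM per kilobase, compared with 25.8 for Cd52. It was at 106, 118, 72.3 and 279 CPM in bone marrow and at 25.4, 15.5, 17.7, 0.374 and 41.0 CPM in MC903 resident libraries. Untreated libraries had 0.369 to 1.93 CPM. Library 9 was at the untreated level while the other 4 MC903 resident libraries were well above it. The rise in MC903 resident cells was 4.04 ± 0.892 (SE, edgeR adjusted p = 0.0302), lost without any 1 of libraries 1 to 6 (adjusted p from 0.0508 to 0.085), with no filter on low counts (0.0966) and with limma (0.147). Bone marrow exceeded MC903 resident cells by 2.98 ± 0.852 (SE), which did not pass (adjusted p = 0.098) and passed without library 9 (0.0121), with the DESeq2 Wald test (0.0154) and with limma (0.00593). Library 15 was 2.82 times the mean of the other 3, beside its macrophage markers, and without it the mean was 98.8 ± 23.7 CPM (SD, n = 3). The neighbouring family member Ifitm2 was present in untreated cells at 142 ± 19.0 CPM (SD, n = 5) and exceeded its MC903 resident level in bone marrow cells (log2 difference 0.79 ± 0.187, SE, edgeR adjusted p = 0.0278), a call not made with DESeq2 size factors. Ifitm1 was at 269.7 and 102 CPM in libraries 11 and 13 and at 1.01 and 17.9 CPM in libraries 14 and 15. These genes are similar in sequence, so their separate values depend on how shared reads were counted.

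Plac8 (chr5:100553725-100572245, minus strand), a small cysteine-rich protein of myeloid progenitors and other immune cells, was at 47.5, 47.6, 28.6 and 12.3 CPM in bone marrow. MC903 resident libraries had 0.341, 0.572, 2.07, 0 and 0.0791 CPM, and untreated libraries 0 to 2.03 CPM. The resident groups overlapped fully, and all bone marrow libraries were above all MC903 resident ones. Bone marrow exceeded MC903 resident cells by 6.13 ± 1.38 (SE, edgeR adjusted p = 0.0216), with the call lost without library 6, 7 or 10 (adjusted p from 0.058 to 0.0849) and a log2 difference of 7.35 without library 8. Library 15 was the lowest bone marrow library for Plac8, at 0.299 times the mean of the other 3.

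Rhof (chr5:123103044-123132692, minus strand), a small GTPase that acts in filopodia, was at 17.7, 40.1, 31.2 and 21.6 CPM in bone marrow and at 4.71, 2.64, 5.51, 1.78 and 0 CPM in MC903 resident libraries. Untreated library 3 had 2.40 CPM and the other 4 at most 0.273 CPM. Glipr1 (chr10:111985448-112002631, minus strand), a member of the cysteine-rich secretory protein superfamily, was at 21.3, 17.3, 40.8 and 27.2 CPM in bone marrow and at 0 to 2.78 CPM in MC903 resident libraries, and its untreated values ran from 0 to 2.82 CPM. For both genes the bone marrow libraries lay above all MC903 resident ones. The edgeR test against MC903 resident cells did not pass for Rhof (3.50 ± 1.25, SE, adjusted p = 0.151) or Glipr1 (4.34 ± 1.24, SE, adjusted p = 0.0731). Rhof passed with no filter on low counts (0.00259) and with limma (0.0184), and Glipr1 with no filter (3.7e-05), the DESeq2 Wald test (0.00568) and limma (0.0121). The adjusted p reached 0.237 for Rhof and 0.207 for Glipr1 in the 6 settings other than leaving out 1 library. It reached 0.291 and 0.161 in the edgeR fits that left out 1 library. On the opposite strand, Krr1 shares 352 bases (22.8% of the exon length) with Glipr1 and was at group means of 13.99 to 23.99 CPM, and Tmem120b shares 523 bases (11.4%) with Rhof at group means of 0.661 to 5.45 CPM. Because the strand setting of the counting is not stated, reads from these shared stretches cannot be assigned with certainty.

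Taking the set as a whole, 6 of the 15 genes (Adgrg1, Sema4d, Bmp7, Plac8, Cd52 and Slc14a1) were called with bone marrow above MC903 resident cells, where 1.32% of the 21014 genes tested were, and none was called lower (0.952% of all genes). For 13 of the 15, every bone marrow library was above every MC903 resident library, the exceptions being Tnfrsf9 and Gpr176, and this held for 2.73% of all genes tested. The choice of genes at 10 CPM or more in every bone marrow library favours both counts. Without library 15, 5 of the 15 were called, Adgrg1 being lost (edgeR adjusted p = 0.0576), and without library 7 or library 8 the count was 3. In MC903 resident against untreated cells, 6 of the 15 (Ifitm3, Spns3, Tnfrsf9, Sema4d, Hsd11b1 and Gpr176) were called higher, where 0.571% of all genes were, and none lower (1.68%). For 4 (Tnfrsf9, Sema4d, Pla2g16 and Gpr176) all MC903 resident libraries were above all untreated ones, against 3.31% of all genes. The choice of genes under 3 CPM in every untreated library favours these counts in the same way. The median log2 difference of the 15 was 3.16 for bone marrow minus MC903 resident cells and 2.19 for MC903 resident minus untreated cells, also with Gpr176 at its lower bound, compared with -0.28 and 0.24 over all genes tested, and the choice favours these medians as it does the counts. The comparisons share the MC903 resident libraries. In the edgeR fit Sema4d alone was called in both, and Itgb2, Rhof, Glipr1 and Pla2g16 in neither.

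**Figure D3:**
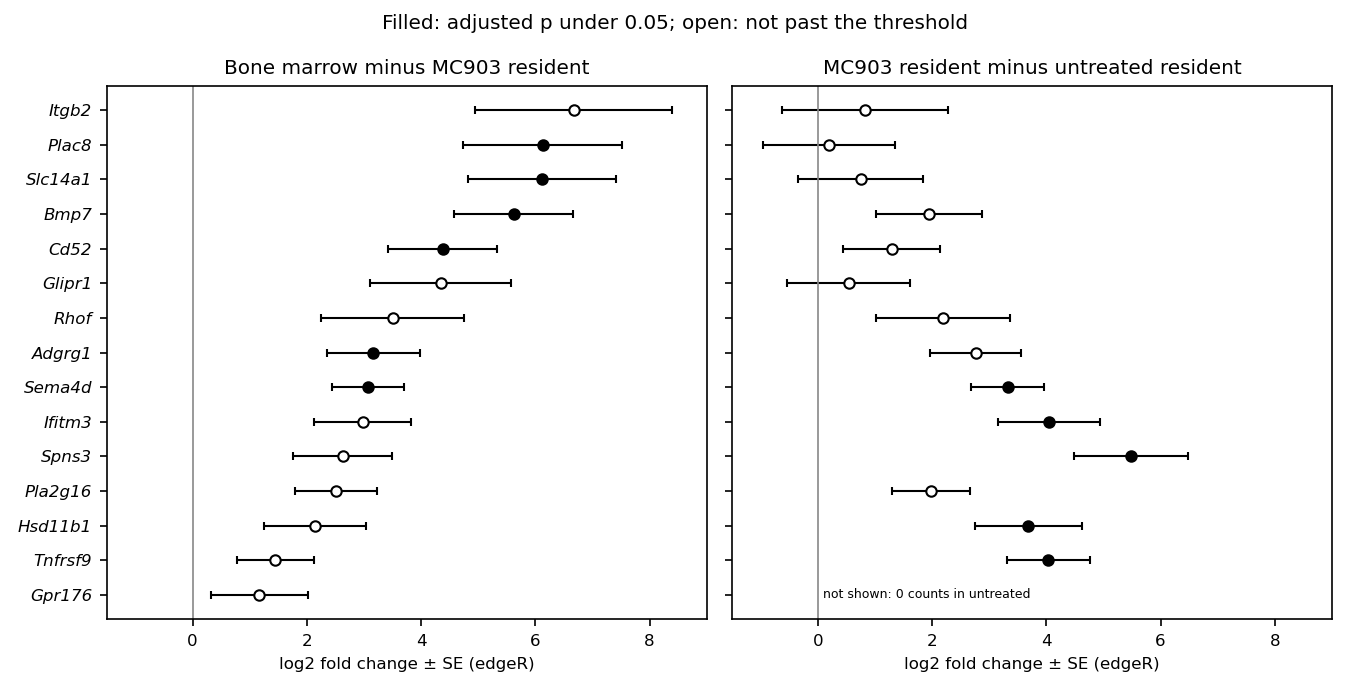
Log2 fold changes with standard errors from the edgeR fit, ordered by the difference of bone marrow from MC903 resident cells; filled points passed an adjusted p of 0.05. Itgb2, Plac8, Slc14a1 and Bmp7 had the highest values on the left (6.67 to 5.62), and Spns3, Ifitm3 and Tnfrsf9 the highest of those drawn on the right (5.48 to 4.04); Gpr176 is not drawn on the right because it had no counts in untreated cells.

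The 15 genes did not rise and fall together among the 4 bone marrow libraries. Library 13 was the highest for 8 genes, library 11 for 4, library 15 for Itgb2 and Ifitm3 and library 14 for Glipr1. Library 15 was the lowest for 6 genes (Spns3, Tnfrsf9, Sema4d, Bmp7, Plac8 and Cd52). It was below the mean of the other 3 libraries for 10 genes and above it for 5, with a median ratio of 0.729. The summed level of the 15 was 653, 757, 559 and 848 CPM in libraries 11, 13, 14 and 15, highest in library 15, and without Itgb2 and Ifitm3 it was 528, 605, 455 and 331 CPM, lowest in library 15. In MC903 resident cells the summed level of all 15 was 118, 111, 103, 57.9 and 109 CPM in libraries 6 to 10, and in untreated cells it was 6.87 to 10.4 CPM. Single libraries of MC903 resident cells stood low for single genes: library 9 for Ifitm3, library 6 for Spns3 and Gpr176, library 7 for Hsd11b1 and library 10 for Rhof.

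**Figure D4:**
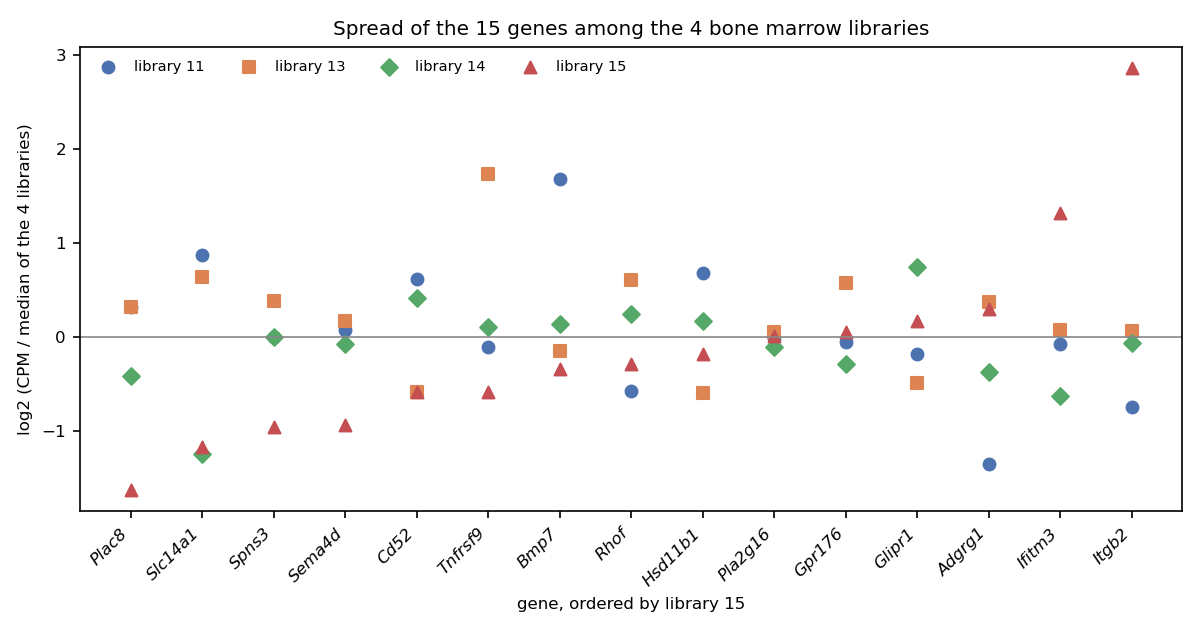
Log2 of each bone marrow library's CPM over the median of the 4, for the 15 genes ordered by library 15; each colour and marker is 1 library. Plac8 is at the left end, where library 15 is lowest at 12.3 CPM, Itgb2 at the right end, where it is highest at 239 CPM, and Pla2g16 shows the least spread.

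Related genes were examined in lists, leaving out the 15. Of 19 listed genes of myeloid progenitors 14 were tested, and Mpo, Elane, Cebpe and Ly6c2 were among those that failed the filter on low counts. Of the 14, 5 were higher in bone marrow cells than in the MC903 resident group (Cd34, Ctsg, Lgals1, Ly6e and Emb) and none was lower. Of all genes tested, 1.32% were higher and 0.952% lower, the shares to set beside each list in this comparison. Negative log2 differences, none called, included Ms4a3 (-3.47), Gfi1 (-0.888), Flt3 (-0.634), Myb (-0.296) and Csf2rb2 (-0.182). The list's median log2 difference was 0.22 against -0.28 for all genes. Cd34, a progenitor surface protein, was at 131 ± 54.8 CPM (SD, n = 4) and 44.0 ± 14.5 CPM (SD, n = 5), a log2 difference of 1.78 ± 0.353 (SE, edgeR adjusted p = 0.00752). Of 20 leukocyte adhesion and migration genes, 4 were higher (Selplg, Itga4, Itgb7 and Coro1a) and Itga2 was lower, with a median of 1.41. Itga4, whose α4 chain pairs with integrin β7, was at 182 ± 56.0 CPM (SD, n = 4) against 28.3 ± 18.3 CPM (SD, n = 5), a log2 difference of 2.91 ± 0.385 (SE, edgeR adjusted p = 0.000159). Itgb7 was the sorting marker and is no finding, and sorting on it may also favour its partner Itga4, which was not tested. Of 17 mucosal mast cell genes 3 were higher (Mcpt1, Il4ra and Alox5ap), of 31 immune signalling genes 2 were higher (Pik3cd and Tnfaip3), and of 37 blood cell transcription factors Bhlhe40 was higher and Egr1, Egr3 and Klf2 were lower. Among 45 tested partners of the 15 genes (ligands, receptors, effectors and family members), Ifitm2 alone was called in this comparison. With DESeq2 size factors the higher and lower counts were 2 and 0 for the mucosal, 1 and 1 for the signalling, 1 and 4 for the transcription factor and 0 and 1 for the partner list, and were the same as above for the other two. In MC903 resident against untreated cells none of the first 3 lists had a called gene in edgeR, with 16 of their 51 tests at an unadjusted p under 0.05 (12.6% of all genes were), and with DESeq2 size factors 1 progenitor and 1 adhesion gene were called. Of the 37 transcription factors, Gata1 was called higher and Egr1, Egr3, Nr4a2 and Nr4a3 lower in that comparison. Of the 31 signalling genes, Traf1 was called higher and Tnfaip3 lower. Over all genes tested, 0.571% were called higher and 1.68% lower there.

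At the edges of the rule, Slc14a1 was the member with the lowest bone marrow value (10.04 CPM), followed by Gpr176 (12.1 CPM) and Plac8 (12.3 CPM). Casp1, Plxnc1 and Sh3bgrl2 missed with lowest bone marrow values of 9.72, 9.41 and 8.86 CPM. The highest untreated values among the 15 were 2.82 CPM for Glipr1, 2.45 CPM for Tnfrsf9 and 2.40 CPM for Rhof, and Rcsd1, Fabp5 and Tspan13 missed with 3.18, 3.45 and 3.85 CPM as their highest untreated values; Fabp5 was at 3 CPM or more in untreated libraries 1 and 2, and the other two in a single library.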

How the data were processed

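Expression was measured in 14 libraries of pooled mast cells sorted from mouse ears, each of up to 100 cells amplified with SMART-Seq HT, per the labels' protocols. The deposited table holds raw read counts per gene, made by the authors with STAR, featureCounts and mm10, per the submitters' processing notes; versions, strand setting and treatment of shared reads are not given in the sources used here. Its Length column, the summed exon length of each gene, was used per the file headers. Symbols and gene types came from GENCODE M21, and promoter sequences from RefSeq (GRCm38.p6).

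CPM (counts per 1e6 counts of the library) is a count divided by the library's total and multiplied by 1e6, with no further scaling. Means are given with the SD over libraries. The 15 genes were kept at 10 CPM or more in all 4 bone marrow libraries and under 3 CPM in all 5 untreated libraries, and all of them are named. The genes and all lists were chosen with earlier results of these data known, and the partner genes after the names of the 15 were seen.

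Differences were tested with edgeR 4.0.16 (R 4.3.3; TMM scaling, robust quasi-likelihood fit, 3 groups in 1 fit, genes kept by filterByExpr with a minimum count of 10 and total of 15), with Benjamini-Hochberg adjustment over 21014 genes and a threshold of 0.05. SE is the log2 fold change divided by the square root of F. Bone marrow against untreated cells was part of the fit, but its p-values are not reported, since it is the contrast of the choice. The script was tested on simulated counts with less spread than these data and with changes only in well-expressed genes, so that test does not cover this setting. Alternatives were DESeq2 1.42.0, limma 3.58.1, other filters, and leaving libraries out. Floors of 3 counts cover counting error only.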

Additional observations from a re-analysis of the deposited data

Results flagged for a closer look

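Within each group of 4 or 5 libraries, the highest library of a gene stood apart from the others for 10 of the 45 gene and group pairs. The criterion was Dixon's, which chance meets in about 1 in 20 for normally distributed values. CPM values near 0 need not be so distributed, so that rate is only a rough guide. It does not apply to the bone marrow and untreated pairs, whose values the choice of genes used. Of the 15 MC903 resident pairs 3 stood apart. In bone marrow cells, library 15 was high for Itgb2 (239 CPM, others 19.6 to 34.4), library 13 for Tnfrsf9 (116 CPM, others 23.1 to 37.3) and library 11 for Bmp7 (78.7 CPM, others 19.3 to 27.0). In MC903 resident cells, library 8 was high for Bmp7 (3.21 CPM, others 0.0791 to 0.681) and for Plac8 (2.07 CPM, others 0 to 0.572), and library 6 for Cd52 (3.86 CPM, others 0.830 to 1.61). In untreated cells the values that stood apart were all below 3 CPM, as the choice of genes requires. They were Sema4d in library 2 (1.32 CPM, others 0.155 to 0.409), Plac8 in library 1 (2.03 CPM, others 0 to 0.148), Cd52 in library 4 (2.18 CPM, others 0 to 0.361) and Rhof in library 3 (2.40 CPM, others 0 to 0.273).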

How the results depend on the processing

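Bone marrow exceeded MC903 resident cells for all 15 genes in all alternatives run. Of the single-gene alternatives over both comparisons, 403 kept their direction and side of the threshold, 19 gained a call, 35 lost one and 8 reversed. The reversals were all in MC903 resident against untreated cells and none was of a called difference: without libraries 7, 8 and 15 the log2 changes were -2.27 for Itgb2, -1.72 for Plac8 and -0.13 for Slc14a1; Plac8 was -0.10 without library 2, -0.06 without library 5 and -1.03 without library 8; Slc14a1 was -0.091 without library 7; and Itgb2 was -0.17 without library 8. Over all fits that left out 1 library the highest values were 2.21 for Itgb2, 3.09 for Plac8 (without library 1) and 1.84 for Slc14a1. The cause was not tested.

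Bone marrow against MC903 resident cells gave 10 of the 15 genes with the DESeq2 Wald test, 13 with limma on quality-weighted counts and 3 without libraries 7, 8 and 15. Over all genes it gave 477 in edgeR, 748 with no filter, 1720 with the DESeq2 Wald test and 2017 with limma. MC903 resident against untreated cells gave 8, 4 and 5 of the 15 in these 3 settings; over all genes it gave 473, 1072 with the DESeq2 Wald test, 1358 with limma and 253 without libraries 7, 8 and 15. Leaving out 1 library at a time gave 3 to 6 of the 15 and 302 to 704 of all genes in the first comparison, and 4 to 6 and 312 to 516 in the second. With DESeq2 size factors the median log2 difference over all genes moved from -0.28 to -0.43 and from 0.24 to 0.40, and the higher and lower calls from 277 and 200 to 167 and 242, and from 120 and 353 to 207 and 294.

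The rule gave 5 genes at 20 CPM in bone marrow, 4 at 1 CPM in untreated cells, 16 with TMM-scaled CPM and 15 to 28 when 1 library was left out (24 without library 11 and 28 without library 13); leaving out a library can only add genes. The counts of genes under 3 CPM and at 10 CPM or more in every MC903 resident library, 4 and 0, became 4 to 5 and 0 to 1 when 1 library was left out. By the mean of the 5 libraries instead, 7 genes were under 3 CPM and 3 at 10 CPM or more. No paired analysis was possible because the groups share no replicate numbers. Pools of up to 100 cells limit what low values show: a value near the floor of 3 counts cannot be told from 0.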
